A study of Homo sapiens with 8 samples.

Results

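FOXC1, NR2F1, NR2F2, SOX4, SOX9, GATA3, FOXA1, EN1 and TFAP2C are transcription factors that mark or direct cell lineages of the breast. They were taken by gene symbol, 9 of the 55679 gene identifiers of an RNA-seq count table, and all 9 were measured in every library and passed the filter on low counts. The genes were chosen by the values described here: the CPM in each library, the ratio of the lines, the ratio of chronically exposed to parental cells and the ratio of Acetalax to control. The values of the 9 genes are therefore a description and carry no test. CPM is the count of a gene scaled to the total count on genes of its library.

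MDAMB468 and BT549 are established human triple-negative breast cancer (TNBC) cell lines, and each was measured in 4 conditions with 1 library per condition. Parental cells were compared with chronic exposure (CE) cells, which had been grown in stepwise doubled Acetalax, kept at 40 µM and then left without the drug for 2 weeks, so that each CE line is 1 derivative of its parent. Both were sampled untreated (control) and after 1 µM Acetalax (oxyphenisatin acetate, a diphenolic laxative) for 6 hours. Over 4 libraries a comparison of CE with parental cells thus rests on 1 derivative per line, a comparison of the lines rests on 1 line of each kind, and all p-values below measure only the spread over these libraries.

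The mammary epithelium has an inner luminal layer of hormone-sensing and secretory cells and an outer basal, myoepithelial layer. GATA3 and FOXA1 maintain the luminal state, and FOXA1 is a pioneer factor that opens chromatin for steroid receptors. SOX9, SOX4, FOXC1 and EN1 are associated with progenitor, basal-like or mesenchymal states of breast tumours, TFAP2C is an AP-2 factor of luminal and HER2-positive tumours, and NR2F1 and NR2F2 (COUP-TFI and COUP-TFII) are orphan nuclear receptors, of which NR2F1 is known as a marker of dormant tumour cells.

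Total counts on genes ranged from 42261122 to 54241728, so that 1 CPM stood for 42.3 to 54.2 counts, and all libraries differed by more than sampling noise. EPCAM, an epithelial surface protein, was at 419.9 CPM ± 13.8 (SD, n = 4 libraries) in MDAMB468 and 0.114 ± 0.0651 in BT549, whereas the intermediate filament gene VIM was at 4.42 ± 3.25 and 1142 ± 269.8 CPM. BT549 thus had almost no reads on the epithelial marker and many on the mesenchymal one. The TNBC receptors were low for ESR1 (4.5 ± 0.79 and 0.0619 ± 0.0833 CPM) and PGR (0 and 0.176 ± 0.302 CPM), and ERBB2 was at 69.6 ± 25.7 and 60.6 ± 20.3 CPM. Of 9 markers of other cell types, 8 were in the table. CD14 was at 21.9 ± 17.8 CPM in MDAMB468 and 1.59 ± 0.749 in BT549, PTPRC was at most 0.756 CPM in any library, and CD3E and MYOD1 had no count.

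The promoters of FOXC1, NR2F1 and SOX4 are printed because NR2F1 and FOXC1 stood furthest above and below parental cells in the CE comparison, FOXA1 in BT549 with its few counts aside, and SOX4 moved in opposite directions in the lines after Acetalax. Each is a stretch of up to 250 bases on the plus strand before the RefSeq start (GRCh38.p14), which for FOXC1 and NR2F1 lies upstream of the start in the count table, placed by an exact match in hg19 at chr6:1609900-1610149 for FOXC1, chr5:92918678-92918927 for NR2F1 and chr6:21593732-21593971 for SOX4. None overlaps an annotated exon. Capitals mark every match, on either strand, to a searched motif.
FOXC1: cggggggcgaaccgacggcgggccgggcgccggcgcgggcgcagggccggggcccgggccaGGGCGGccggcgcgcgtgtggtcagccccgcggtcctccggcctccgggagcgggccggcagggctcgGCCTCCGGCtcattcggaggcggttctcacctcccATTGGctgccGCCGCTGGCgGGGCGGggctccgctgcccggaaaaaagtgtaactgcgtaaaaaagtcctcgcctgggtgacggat
NR2F1: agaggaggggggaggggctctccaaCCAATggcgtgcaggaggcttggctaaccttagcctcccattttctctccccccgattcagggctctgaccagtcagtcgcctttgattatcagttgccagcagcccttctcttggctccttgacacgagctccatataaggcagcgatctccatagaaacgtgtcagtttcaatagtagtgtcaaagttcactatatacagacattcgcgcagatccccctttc
SOX4: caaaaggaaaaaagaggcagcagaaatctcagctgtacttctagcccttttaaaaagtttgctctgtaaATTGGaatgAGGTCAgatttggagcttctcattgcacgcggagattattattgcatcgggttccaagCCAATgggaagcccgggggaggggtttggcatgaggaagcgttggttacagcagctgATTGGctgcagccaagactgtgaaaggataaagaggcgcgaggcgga
RefSeq entries were matched for 6 of the 9 genes (FOXC1, NR2F1, NR2F2, SOX4, GATA3 and FOXA1). The windows of NR2F2 (chr15:96875544-96875793) and FOXA1 (chr14:38064455-38064704) lie inside the gene's span in the count table and overlap an annotated exon of the gene. That of GATA3 (chr10:8087046-8087295) lies far upstream of its start in the count table, 8095567. In windows of 250 bases, CCAAT was found in 3 of the 6 (FOXC1, NR2F1 and SOX4) and in 32.0% of 34788 promoters, and the GC box GGGCGG in 2 (FOXC1 and FOXA1) and 42.6%. The AP-2 motif GCCNNNGGC, the letters bound by the TFAP2 family, was found in FOXC1 and GATA3 and in 19.8% of all promoters. The nuclear receptor core AGGTCA was found in SOX4 alone of the 6 and in 12% of all. The AP-1 motif TGANTCA (6.59% of all promoters), the CRE motif TGACGTCA (1.64%) and the TATA box TATAAA (10.8%) were in none of the 6 windows. The same held for the letters bound by GATA factors, AGATAA (9.21% of all), by forkhead factors, TGTTTAC (2.98%), and by SOX factors, AACAAT (9.0%). The FOXC1 stretch was GC-rich (76.8%, above 92.5% of all promoters), while those of NR2F1 (52.4%) and SOX4 (48.8%) were below the middle of the distribution.

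**Figure D1:**
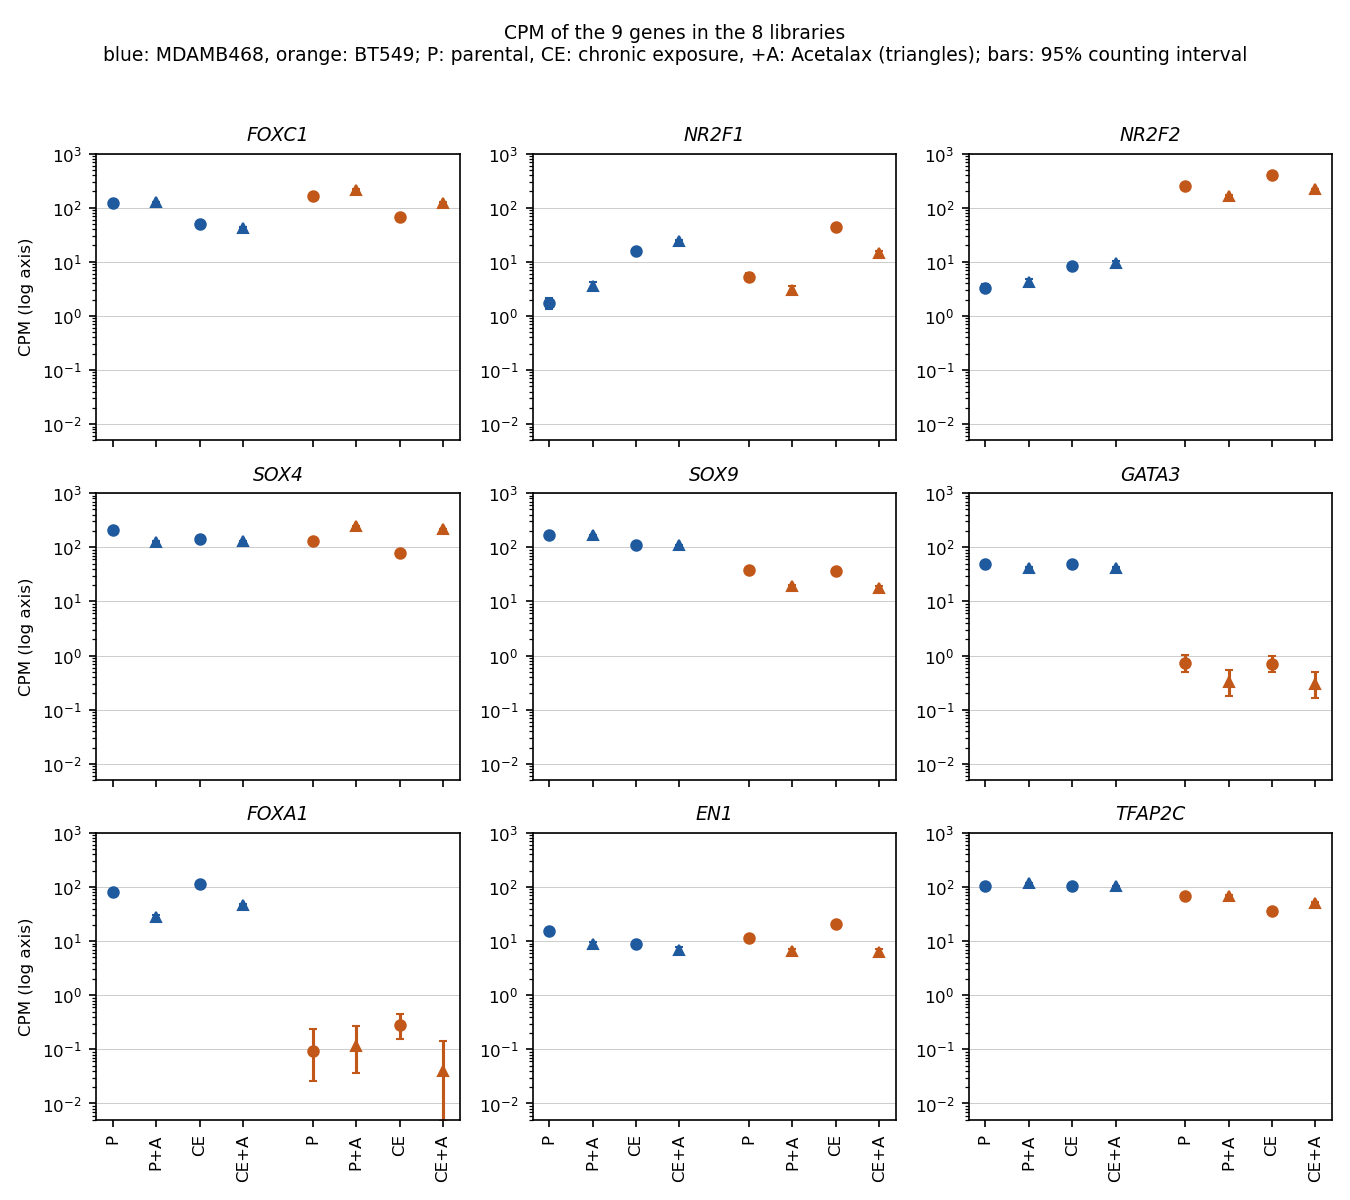
CPM (log axis) of each of the 9 genes in the 8 libraries, 4 of MDAMB468 (blue) and 4 of BT549 (orange), with 95% exact counting intervals as bars. GATA3 and FOXA1 lay below 1 CPM in all 4 BT549 libraries, NR2F2 lay above 165 CPM in all 4, and NR2F1 was higher in CE than in the matching parental library in all 4 pairs.

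Compared per length, as FPKM (CPM per kilobase of merged exons), the 9 genes stood in a different order in the 2 lines. In MDAMB468 the median level was highest for SOX9 (35.2 FPKM) and TFAP2C (34.7 FPKM), followed by SOX4 (27.8), FOXC1 (21.4), FOXA1 (14.5) and GATA3 (13.1), and it was lowest for EN1 (3.11), NR2F1 (2.19) and NR2F2 (0.982). In BT549 it was highest for NR2F2 (36.4 FPKM), FOXC1 (36.0) and SOX4 (35.7), followed by TFAP2C (19.7), SOX9 (7.13), EN1 (3.16) and NR2F1 (2.29), with GATA3 (0.15) and FOXA1 (0.0237) last. FOXC1, SOX4 and TFAP2C were thus well expressed in both lines, and NR2F2, last in MDAMB468, was level with FOXC1 and SOX4 at the top in BT549. The order of these genes in BT549 is not settled, with SDs of 15.4 (NR2F2), 15.5 (FOXC1) and 15.7 FPKM (SOX4) over 4 libraries. The merged exons of FOXC1, 3983 bases, are also longer than its span in the count table (chr6:1610681-1614127), which lowers its FPKM.

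By the mean log2 ratio over the conditions, the lines differed most in FOXA1 and GATA3, although in parental control cells NR2F2 differed more (6.25) than GATA3. GATA3, a zinc finger factor at hg19 chr10:8095567-8117161, was at 48.2, 40.9, 50.1 and 40.8 CPM in MDAMB468 parental control, parental Acetalax, CE control and CE Acetalax cells, and at 0.734, 0.322, 0.701 and 0.297 CPM in the same 4 conditions of BT549. The groups did not overlap, and the BT549 values rested on 31, 14, 38 and 15 counts. The log2 ratio of BT549 to MDAMB468 was -6.04 in parental control cells, with a 95% counting interval of -6.60 to -5.53, which is a 65.8-fold lower level, and its mean over the conditions was -6.57 ± 0.55 (SD, n = 4).

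FOXA1, at chr14:38059189-38069245 on the minus strand, was at 81.2, 28.4, 113 and 46.7 CPM in the 4 MDAMB468 conditions and at 0.0946, 0.115, 0.277 and 0.0396 CPM in BT549, where the counts were 4, 5, 15 and 2. Its log2 ratio of the lines was -9.74 (-11.62 to -8.39) in parental control cells and averaged -9.15 ± 1.02 (SD, n = 4). At these counts the order of the BT549 conditions was within counting error, except that the CE control value was above that of CE Acetalax cells.

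TFAP2C, the AP-2γ factor at chr20:55204358-55214339, was expressed in both lines. It was at 105, 118, 104 and 103 CPM in MDAMB468 and at 69.6, 68.7, 36.1 and 49.9 CPM in BT549, so that every BT549 library lay below every MDAMB468 library. The log2 ratio of the lines ranged from -1.52 in CE control to -0.59 in parental control cells.

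SOX9, an HMG-box factor of mammary stem and luminal progenitor cells at chr17:70117161-70122561, was at 168, 169, 109.5 and 108 CPM in MDAMB468 and at 37.9, 19.1, 36.9 and 17.8 CPM in BT549. The lines did not overlap, and the log2 ratio averaged -2.37 ± 0.67 (SD, n = 4). Within each line the values fell into pairs that did not differ beyond counting error: in MDAMB468 the pairs were the 2 parental and the 2 CE libraries, and in BT549 the 2 control and the 2 Acetalax libraries.

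NR2F2, at chr15:96869167-96883492, was the 1 gene of the 9 that stood far higher in BT549. It was at 3.29, 4.22, 8.49 and 9.55 CPM in MDAMB468 and at 250.3, 165, 398 and 221 CPM in BT549. The log2 ratio was 6.25 (6.02 to 6.48) in parental control cells, 76.1-fold, and 4.53 (4.40 to 4.67) in CE Acetalax cells, 23.1-fold.

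SOX4, FOXC1, EN1 and NR2F1 overlapped between the lines. SOX4, at chr6:21593972-21598847, had a log2 ratio of -0.67 and -0.84 between parental and CE control cells of the lines and of 0.93 and 0.74 after Acetalax. The order of the lines therefore turned with treatment. FOXC1, a forkhead factor of basal-like tumours at chr6:1610681-1614127, was higher in BT549 in each of the 4 conditions, by 0.44 to 1.57 on the log2 scale. EN1, a homeobox factor at chr2:119599747-119605254 on the minus strand, had log2 ratios between -0.45 and 1.22, and NR2F1, at chr5:92919043-92930321, between -0.71 and 1.64.

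In counts of genes, 5 of the 9 did not overlap between the 4 libraries of each line (NR2F2 higher in BT549, and SOX9, GATA3, FOXA1 and TFAP2C lower), where 56.2% of the 14030 genes averaging 1 CPM or more did not overlap. By edgeR's quasi-likelihood test 6 of the 9 were called, FOXC1 joining them as higher, beside 56.8% of 19693 genes tested (27.3% higher and 29.5% lower). Past 2-fold were 5 of the 9 in parental control cells (43.3% of all genes), 4 in parental cells with Acetalax (43.7%), 7 in untreated CE cells (41.2%) and 6 in treated CE cells (47.9%). The share by edgeR among the 9 is near that of all genes, and the choice of the genes used this contrast.

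**Figure D2:**
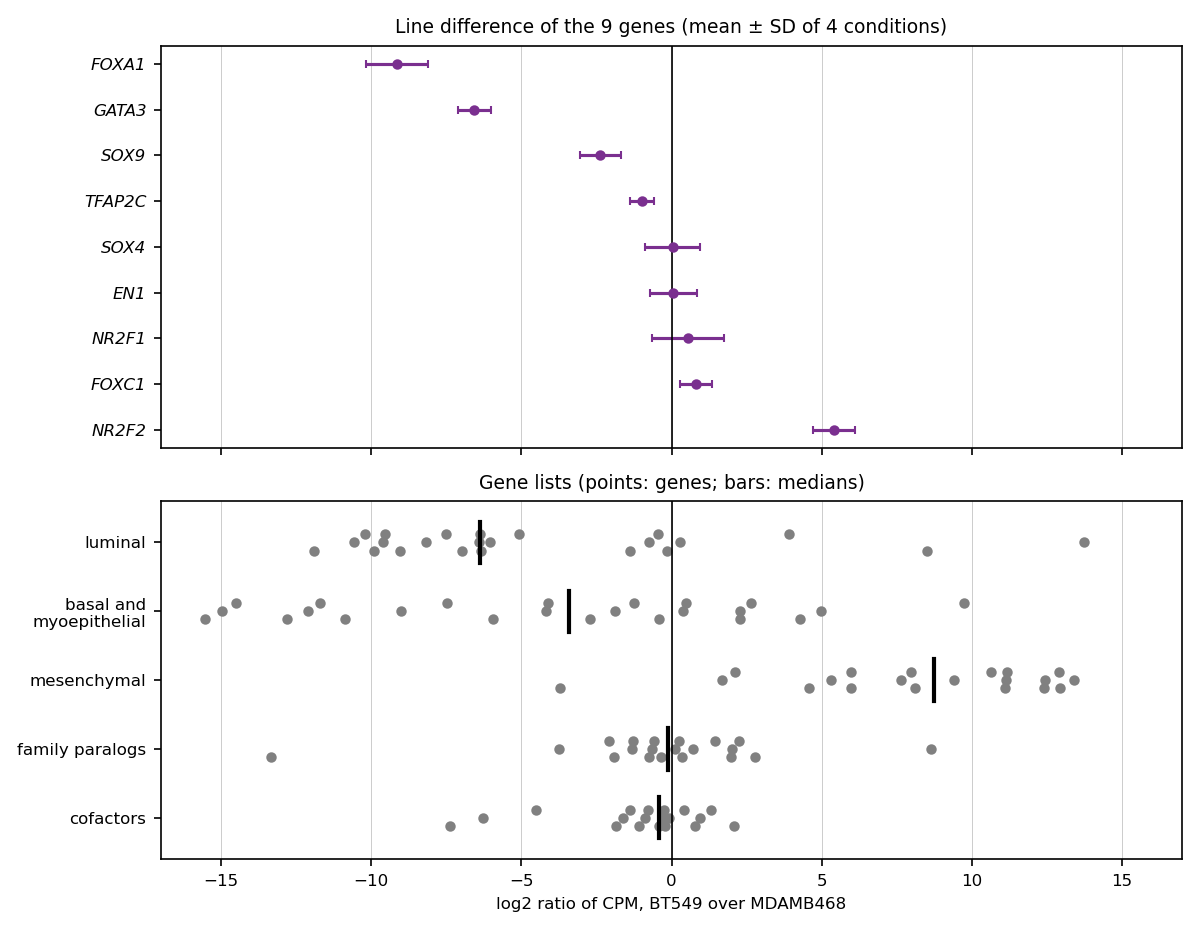
Log2 ratio of CPM, BT549 over MDAMB468, for the 9 genes (upper panel, mean ± SD of 4 conditions) and for the genes of 5 lists averaging 1 CPM or more (lower panel, ratio of the line means; thick bars are list medians; genes without a count in a line are drawn at the bound set by 3 counts per library). FOXA1 and GATA3 lie on the side of the luminal list (median -6.38) and of the basal and myoepithelial list (median -3.41). NR2F2 lies on the side of the mesenchymal list (median 8.75).

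The luminal list, 25 genes tested apart from GATA3, FOXA1 and TFAP2C, had 18 genes lower and 3 higher in BT549 by edgeR's quasi-likelihood test (Benjamini-Hochberg adjusted p under 0.05), with a median log2 ratio of -6.38 against -0.12 over all genes. All lists were chosen with earlier results of these data known, so the counts and medians of lists are a description. The simple-epithelium keratins KRT8, 2968 ± 829.8 (SD, n = 4) and 14.7 ± 16.5 CPM in MDAMB468 and BT549, and KRT19, 2135 ± 527 and 1.65 ± 1.73 CPM, were lower, as GATA3 and FOXA1 were. Among the 3 higher genes, the T-box factor TBX3 was at 0.0158 ± 0.0315 and 220.1 ± 136 CPM, and the carbonic anhydrase CA12 at 1.35 ± 0.473 and 19.3 ± 9.34 CPM.

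Of 24 basal and myoepithelial genes tested, 13 were lower and 6 higher in BT549, with a median of -3.41. The basal keratin KRT5 (1352 ± 438 and 0.0421 ± 0.0389 CPM, SD, n = 4 each), the protease KLK5 (973 ± 192 and 0.0395 ± 0.0348) and the receptor EGFR (6113 ± 3332 and 345.5 ± 82.1) were lower. The contractile genes ACTA2 (0.0854 ± 0.0752 and 75.9 ± 49.7 CPM) and TAGLN (14.2 ± 6.26 and 288 ± 92.7) and the caveolin CAV1 (219.9 ± 70.4 and 1032 ± 436) were higher. Of 20 mesenchymal genes 19 were higher in BT549, with the collagen COL1A2 at 0.349 ± 0.385 and 2585 ± 1811 CPM, and S100A4 alone was lower.

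Relatives of the 9 genes did not all follow them. Of 26 family paralogs tested, 9 were higher and 10 lower in BT549, with a median log2 ratio of -0.11. FOXM1, the most abundant of them, a factor of cell division, was higher (91.7 ± 12.2 and 252 ± 46.2 CPM). GATA6 was higher in BT549 (12.9 ± 2.33 and 52.9 ± 10.5 CPM; log2 fold change 2.19 ± 0.17 SE; adjusted p = 0.000154, edgeR), opposite in direction to GATA3. FOXQ1 was lower (53.9 ± 12.8 and 0.00461 ± 0.00922 CPM), and NR2F6, the remaining COUP-family receptor, was lower too (155 ± 25.2 and 41.4 ± 13.8 CPM; log2 fold change -1.79 ± 0.17 SE; adjusted p = 0.000328, edgeR), opposite to NR2F2. TFAP2A, the partner of TFAP2C, was at 133 ± 10.2 and 86.1 ± 39.8 CPM and did not pass (adjusted p = 0.147, edgeR). Of the 20 cofactors 5 were higher and 8 lower, among them the Groucho corepressor TLE3, at 294 ± 39 CPM in MDAMB468 and 12 ± 11.2 in BT549, and CITED2, a coactivator of AP-2 factors, at 153 ± 33 and 379.5 ± 96.3 CPM.

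CE cells were compared with parental cells within each line and treatment, which gave 4 pairs. NR2F1 had the largest ratios of the 9 genes. It was at 1.71 CPM in parental and 15.6 in CE MDAMB468 control cells, and at 3.62 and 24.1 CPM with Acetalax. In BT549 it was at 5.32 and 43.3 CPM in control cells and at 3.06 and 14.8 CPM with Acetalax. Each CE library was above both parental libraries of its line, and the log2 ratios were 3.19 (2.86 to 3.54), 2.73 (2.50 to 2.97), 3.02 (2.83 to 3.23) and 2.27 (2.00 to 2.55), that is 9.12, 6.64, 8.14 and 4.82-fold.

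NR2F2 was also higher in CE cells in the 4 pairs. Its log2 ratio was 1.37 and 1.18 in MDAMB468, control and Acetalax, and 0.67 and 0.42 in BT549, so that the line with the lower level had the larger ratio. FOXC1 was lower in CE cells in the 4 pairs. It was at 120.1 and 126 CPM in MDAMB468 parental cells and at 50.4 and 41.6 CPM in CE cells, and at 163, 215, 68.4 and 124 CPM in BT549 parental control, parental Acetalax, CE control and CE Acetalax cells. Its log2 ratio was -1.25 in the control cells of both lines, a 2.38-fold lower level, and -1.59 and -0.80 with Acetalax.

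**Figure D3:**
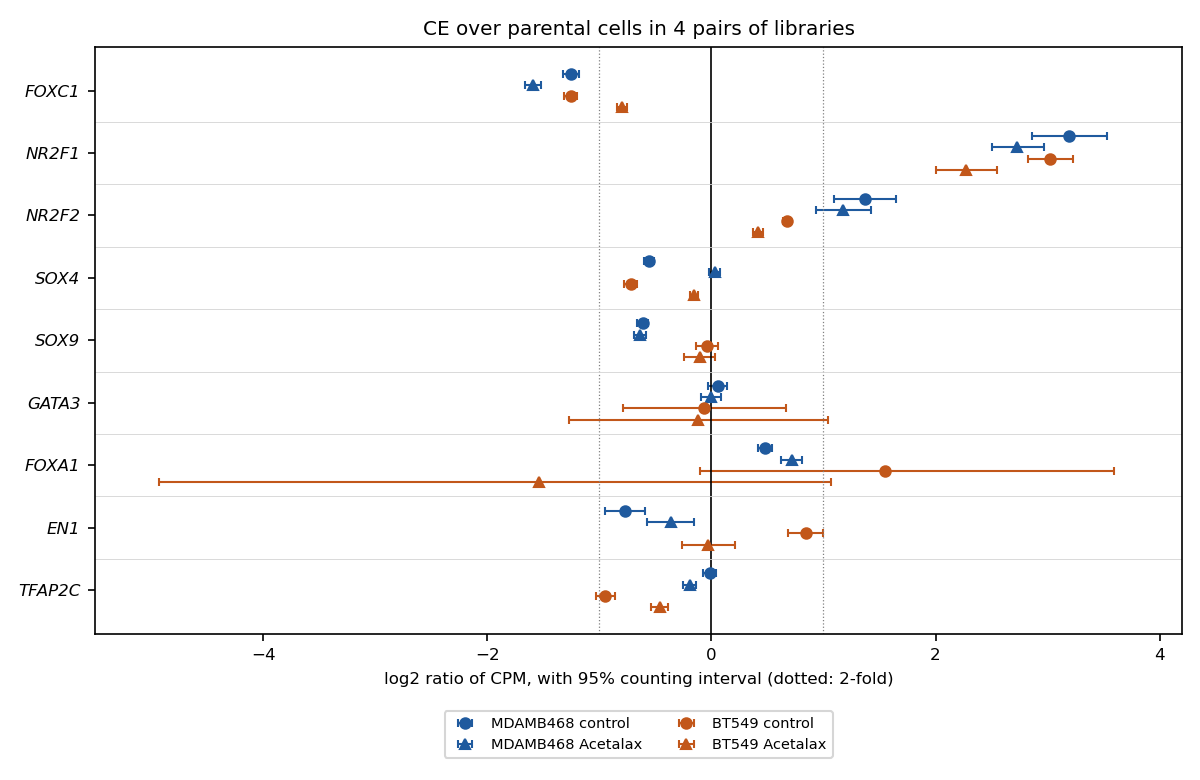
Log2 ratio of CPM, CE over parental cells, of the 9 genes in 4 pairs of libraries (blue MDAMB468, orange BT549; circles control, triangles Acetalax), with 95% counting intervals and dotted lines at 2-fold. NR2F1 lies above 2.2 in all 4 pairs and FOXC1 lies below -0.7 in all 4, while the wide FOXA1 and GATA3 intervals in BT549 rest on 2 to 38 counts.

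The luminal factors GATA3 and TFAP2C lay near their parental level in untreated MDAMB468 CE cells. The log2 ratio of GATA3 was 0.06 (-0.03 to 0.14) and that of TFAP2C was -0.02 (-0.07 to 0.04). With Acetalax GATA3 was at -0.003 (-0.09 to 0.09) and TFAP2C was lower, at -0.20 (-0.25 to -0.14). FOXA1 had log2 ratios of 0.48 and 0.71 in MDAMB468, control and Acetalax. In BT549 TFAP2C was at -0.95 (-1.03 to -0.86) in control and -0.46 in Acetalax cells. SOX9 was at -0.61 and -0.64 in MDAMB468 and within counting error of 0 in BT549 (-0.04 and -0.10). EN1 differed in sign between the control cells of the lines, -0.77 in MDAMB468 and 0.84 in BT549, and SOX4 was at -0.56 and -0.72 in control cells and at 0.03 and -0.16 with Acetalax.

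The same direction in 4 of 4 pairs was found for 5 of the 9, NR2F1 and NR2F2 higher and FOXC1, SOX9 and TFAP2C lower, where 26.8% of 14030 genes did so. The ratios of SOX9 in BT549 changed sign with TMM scaling, to 0.01 in control and 0.13 in Acetalax cells. Past 2-fold were 3 of the 9 in the control cells of MDAMB468 (6.27% of all genes), 3 in its Acetalax cells (7.63%), 3 in the control cells of BT549 (16.2%) and 2 in its Acetalax cells (18.1%). Both BT549 counts include FOXA1 (15 against 4 counts and 2 against 5), whose intervals, -0.10 to 3.60 and -4.93 to 1.07, include 0, and without it they are 2 (NR2F1 and FOXC1) and 1 (NR2F1). NR2F1 alone of the 9 was past 2-fold upwards in 4 of 4 pairs, as were 0.314% of all genes, and it alone was called by edgeR, beside 0.117% of 19693 genes. No gene was called without the BT549 Acetalax, the BT549 control or the MDAMB468 Acetalax pair, where the unadjusted p was under 0.05 for 1888, 1511 and 2560 genes. This CE call repeats the contrast by which the 9 genes were chosen and is no test of it.

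After 6 hours of Acetalax, FOXA1 was the gene with the lowest ratio in MDAMB468. It was at 81.2 CPM in parental control and 28.4 CPM in parental Acetalax cells, a log2 ratio of -1.51 (-1.60 to -1.42) or 2.85-fold lower, and at 113 and 46.7 CPM in CE cells, -1.28 (-1.35 to -1.21) or 2.42-fold lower. GATA3 was lower in all 4 backgrounds, at -0.24 and -0.30 in MDAMB468 and -1.19 (-2.21 to -0.24) and -1.24 (-2.21 to -0.34) in BT549, where its level was below 1 CPM throughout. EN1 was lower in all 4 backgrounds as well: 15.2 against 8.85 and 8.93 against 6.88 CPM in MDAMB468 parental and CE cells, and 11.6 against 6.46 and 20.8 against 6.33 CPM in BT549.

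**Figure D4:**
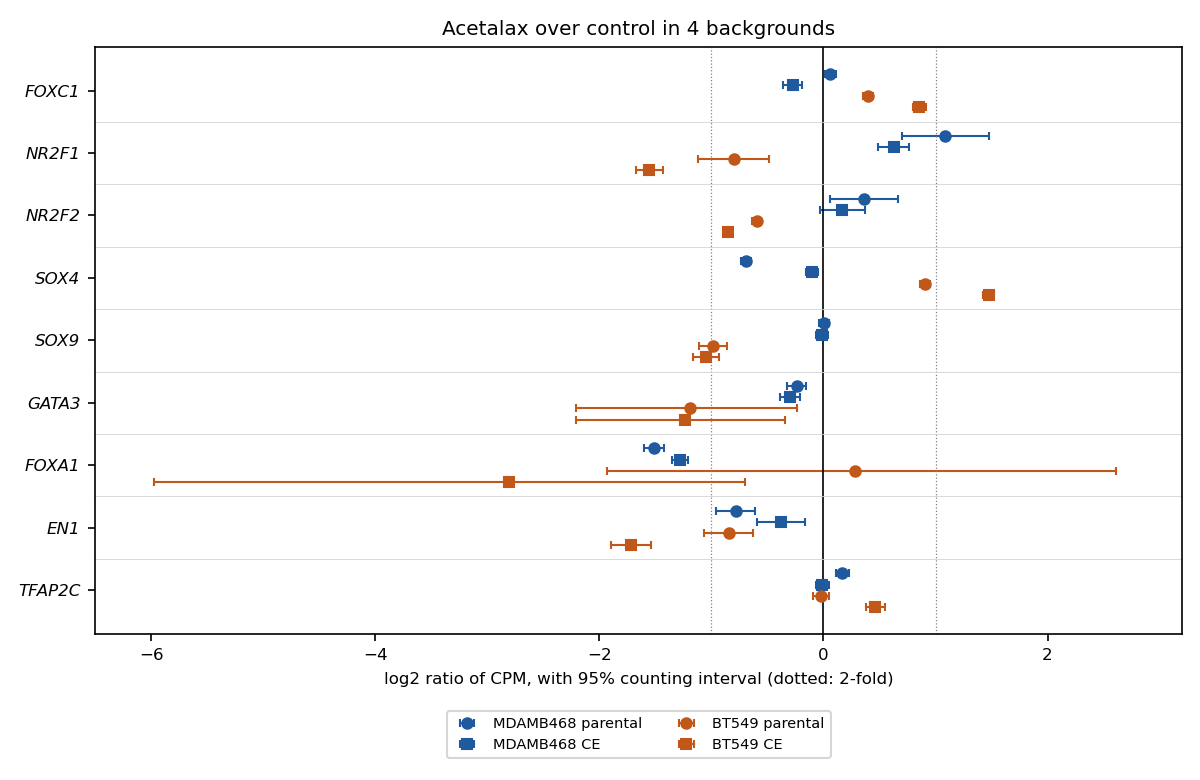
Log2 ratio of CPM, 1 µM Acetalax for 6 hours over control, of the 9 genes in parental (circles) and CE (squares) cells of MDAMB468 (blue) and BT549 (orange), with 95% counting intervals and dotted lines at 2-fold. SOX4, NR2F1 and NR2F2 lie on opposite sides of 0 in the 2 lines, and FOXA1 lies below -1.2 in both MDAMB468 backgrounds. The NR2F2 interval in MDAMB468 CE cells includes 0.

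SOX4, NR2F1 and NR2F2 had opposite directions in the lines. SOX4 was at 207 CPM in MDAMB468 parental control and 128 CPM in parental Acetalax cells, and at 140.1 and 130.3 CPM in CE cells. In BT549 it was at 129 and 243 CPM in parental and 78.5 and 218 CPM in CE cells, log2 ratios of 0.91 (0.86 to 0.95) and 1.47 (1.42 to 1.52). The ratio in MDAMB468 CE cells, -0.10 (-0.16 to -0.05), was 0.02 under upper quartile scaling.

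NR2F1 had log2 ratios of 1.09 (0.70 to 1.48) and 0.63 (0.49 to 0.77) in MDAMB468 parental and CE cells and of -0.80 (-1.12 to -0.48) and -1.55 (-1.68 to -1.44) in BT549. NR2F2 was at 0.36 (0.05 to 0.67) and 0.17 (-0.03 to 0.37) in MDAMB468 and at -0.60 and -0.85 in BT549. SOX9 was level in MDAMB468 (0.01 and -0.01) and lower in BT549 (-0.99 and -1.05), FOXC1 was at 0.06 and -0.28 in MDAMB468 and 0.40 and 0.85 in BT549, and TFAP2C lay between -0.02 and 0.46.

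GATA3 and EN1 were thus lower in 4 of 4 backgrounds, where 41.2% of 14030 genes kept 1 direction, and 3 of the 9 were opposite between the lines, where 17.1% of these genes were. Past 2-fold were 2 of the 9 in MDAMB468 parental cells (NR2F1 and FOXA1; 10.4% of all genes), 1 in MDAMB468 CE cells (FOXA1; 6.39%) and 1 in BT549 parental cells (GATA3, at 14 against 31 counts; 7.39%). BT549 CE cells had 6 of the 9 (SOX4 higher; NR2F1, SOX9, GATA3, FOXA1 and EN1 lower) beside 19.9% of 14030 genes, and the median ratio of all genes there was -0.22. Of these, GATA3 (15 against 38 counts) and FOXA1 (2 against 15) were below 1 CPM in BT549 and averaged over 1 CPM only through MDAMB468, so the counts for BT549 cannot be read against the share of all genes, and 4 of the 9 remain without them. Which genes were past 2-fold in BT549 CE cells also changed with the scaling. Under TMM scaling SOX9 was at -0.83 and FOXC1 at 1.07. Under upper quartile scaling SOX9 was at -0.50 and GATA3 at -0.70. FOXA1 alone of the 9 was called by edgeR over the 4 backgrounds, beside 5.00% of 19693 genes. This call repeats the contrast by which the 9 genes were chosen and is no test of it, and FOXA1 had 2 to 15 counts per BT549 library.

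Among the luminal genes of the list, edgeR's quasi-likelihood test called 6 of 25 lower after Acetalax and 1 higher, where 2.27% of all genes were lower and 2.72% higher. The lists were chosen with earlier results of these data known, so their counts beside these shares are no test of the lists. ELF3 (log2 fold change -1.49 ± 0.27 SE; adjusted p = 0.0377) and EHF (-1.45 ± 0.24; adjusted p = 0.0361), epithelial ETS factors, and KRT19, ERBB2 and MUC1 were among the lower genes, and TBX3 was higher (1.75 ± 0.30; adjusted p = 0.0385). Of the 24 basal genes, 4 were higher and none lower: KRT6A (2.43 ± 0.22; adjusted p = 0.0222), KRT6B, KRT17 and EGFR (1.00 ± 0.17; adjusted p = 0.0367). For basal genes averaging 1 CPM or more in MDAMB468, the median difference of log2(CPM + 1) was 0.58 in parental and 0.57 in CE cells. For those in BT549 it was -0.23 and -0.07, where all genes were at -0.10 and -0.18. Counts on KRT6A and KRT6B were near 0 in BT549, so their fold changes rest on MDAMB468. That of KRT17 went from 1.72 to 1.87 without the BT549 CE pair and to 1.82 without the BT549 parental pair. That of KRT19 went from -0.74 to -0.54 and to -0.72 without these pairs. TBX3 was near 0 in MDAMB468, so its fold change rests on BT549. It was 1.16 without the BT549 CE pair and 2.39 without the BT549 parental pair. Of the 20 cofactors, 2 were higher (TLE1 and CITED2) and 1 was lower. The lowest adjusted p by edgeR was 0.0681 among the mesenchymal genes (LOX) and 0.073 among the paralogs (NR2F6). Without the pair of MDAMB468 parental libraries no gene of 18967 was called (lowest adjusted p = 0.17), against 984 of 19693 with it, and 3491 genes had an unadjusted p under 0.05 there. KRT6A, KRT6B and KRT17 lost their call in that fit alone. ERBB2 lost it also without the MDAMB468 CE pair, TBX3 without the BT549 CE pair, TLE1 without either BT549 pair, EHF and ELF3 without the BT549 parental or MDAMB468 CE pair, EGFR without either CE pair, and KRT19, MUC1 and CITED2 without any 1 pair.

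The genes around the 9 were examined within 250 kb, 68 in all, of which 18 had a mean of at least 0.5 CPM. NR2F1-AS1 is transcribed from the minus strand at chr5:92745065-92921354 and overlaps the start of NR2F1. It was at 1.30 and 2.61 CPM in MDAMB468 parental cells, control and Acetalax, and at 8.77 and 11.6 CPM in CE cells, and at 1.47, 0.943, 7.61 and 4.90 CPM in the same conditions of BT549. It was higher in CE than parental cells by 2.44 ± 0.20 (SE) on the log2 scale (adjusted p = 0.0272, edgeR over 19693 genes). The call was lost without any 1 of the 4 pairs, with adjusted p from 0.0943 without the MDAMB468 Acetalax pair to 0.272 without the BT549 control pair, and the log2 fold change ran from 2.36 to 2.57. The library kit was directional, but the strand used in counting is not given in the sources used here. How reads were assigned where NR2F1 and NR2F1-AS1 overlap is therefore not known.

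**Figure D5:**
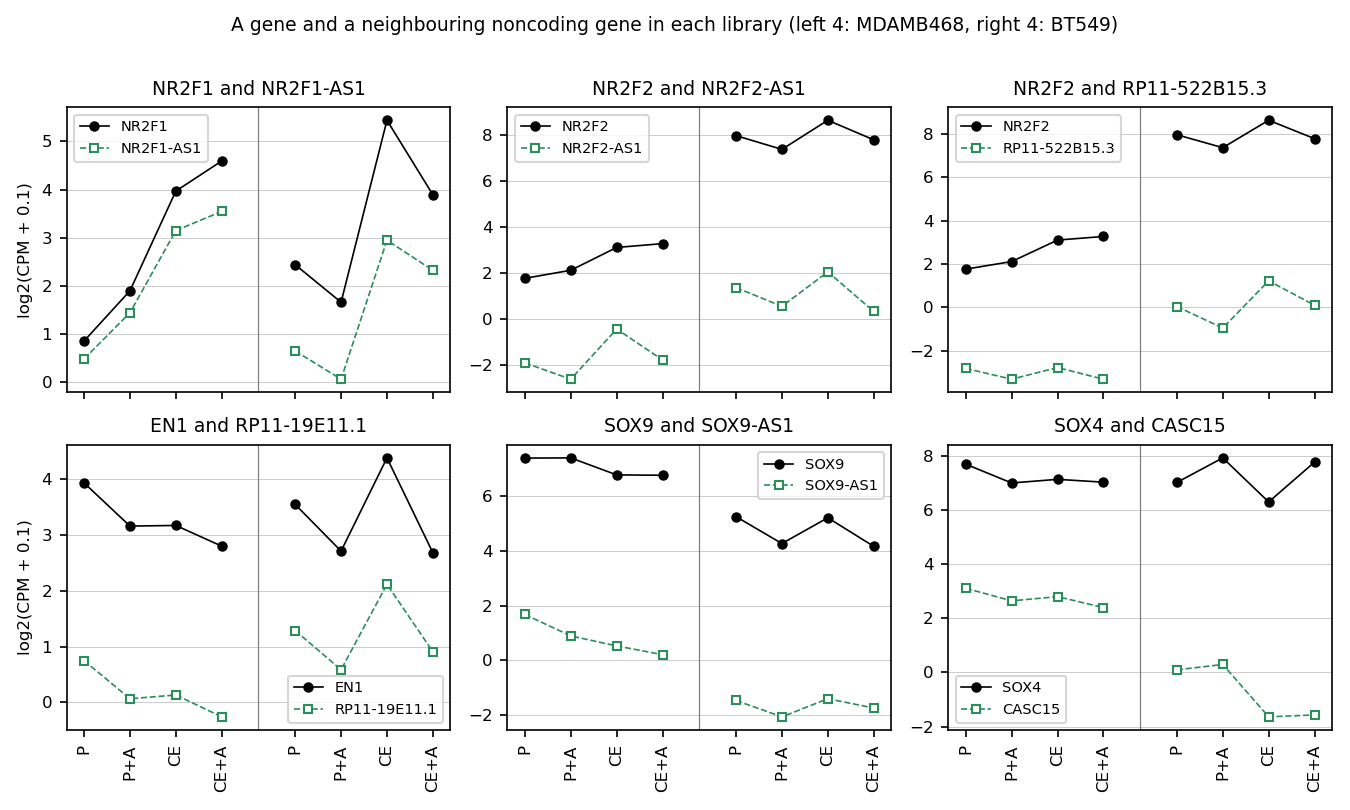
Log2(CPM + 0.1) of a member gene (black circles) and of a noncoding gene within 250 kb (green squares) in each library, 4 of MDAMB468 at the left and 4 of BT549 at the right of each panel. NR2F1-AS1 is higher in CE than parental libraries in both lines, and NR2F2-AS1 and RP11-522B15.3 are higher in BT549, as NR2F2 is.

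NR2F2-AS1 overlaps NR2F2 on the opposite strand (chr15:96670598-96870590). It was higher in BT549 by 3.44 ± 0.39 (SE) on the log2 scale (adjusted p = 0.000628, edgeR) and lower after Acetalax by edgeR (-1.32 ± 0.27; adjusted p = 0.0424), a call that was lost without any 1 of the 4 pairs, with 3 to 28 counts per MDAMB468 library. RP11-522B15.3, downstream of NR2F2 on its own strand, was higher in BT549 (5.74 ± 0.60; adjusted p = 0.00045, edgeR), with at most 2 counts per MDAMB468 library. Around SOX9, SOX9-AS1 (-2.78 ± 0.39; adjusted p = 0.00147) and LINC00511 (-3.67 ± 0.21; adjusted p = 5.04e-05) were lower in BT549 by edgeR, as SOX9 was. SOX9-AS1 spans SOX9 on the opposite strand (chr17:70033455-70217977) and had 6 to 15 counts per BT549 library. How reads were assigned where SOX9-AS1 overlaps SOX9, and where NR2F2-AS1 overlaps NR2F2, is not known. CASC15, near SOX4, was lower in BT549 by edgeR (-3.51 ± 0.47; adjusted p = 0.00121), where SOX4 overlapped between the lines.

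TTC6 overlaps FOXA1 on the opposite strand, at chr14:38065052-38510647. It was at 3.33, 1.36, 4.53 and 1.49 CPM in the 4 MDAMB468 conditions, lower after Acetalax in parental and CE cells as FOXA1 was, and at most 0.253 CPM in BT549. How reads were assigned where TTC6 and FOXA1 overlap is not known either. A noncoding gene on the EN1 strand at chr2:119591276-119592686, was at 1.58, 0.947, 0.997 and 0.736 CPM in MDAMB468 and 2.34, 1.40, 4.24 and 1.78 CPM in BT549, with its highest value in CE control cells of BT549, where EN1 was highest too.

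For each gene the expressed genes were ranked by how closely their log2(CPM + 1), centred on its own mean, followed it over the 8 libraries, measured by the root mean square difference. TFAP2C was followed most closely by PACSIN2 (0.12) and RBM38 (0.13), GATA3 by CAMSAP3 (0.15) and PGBD5 (0.15), and FOXA1 by CXXC5 (0.21) and IRX6 (0.22). SOX9 was followed by IL17RB (0.21) and LGR4 (0.23), SOX4 by IVNS1ABP (0.23) and CNTF (0.24), FOXC1 by ADAMTS5 (0.16) and TULP4 (0.24), and EN1 by FAM127C (0.17) and GPR19 (0.18). The distances were larger for NR2F2, to ATP8B2 (0.32) and TENM2 (0.33), and largest of the 9 for NR2F1, to PPP2R2C (0.40) and SYTL2 (0.61). They are not scaled to a gene's own spread, which was 1.71 to 43.3 CPM for NR2F1 and 36.1 to 118 CPM for TFAP2C. The distances therefore do not order the 9 genes by how closely they were followed. The 8 libraries come from 2 lines, so the differences between the lines weigh most in this ranking. Some of the genes ranked were near the floor. ADAMTS5 was at 0 CPM in both MDAMB468 CE libraries and at most 3.08 CPM elsewhere. CNTF was at 1.35 to 3.33 CPM, and IRX6 was at 0 CPM in every BT549 library. Their distances depend on the 1 added to the CPM.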

How the data were processed

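RNA-seq of MDAMB468 and BT549 cells gave 8 libraries, 1 per condition. The authors aligned reads to hg19 with STAR (2.7.11b per the submitters' processing notes; the version in the study's methods differs) and deposited raw counts per gene from its GeneCounts option. The strand column and annotation are not given in the sources used here. The table had 58154 rows for 55679 identifiers; 1392 were repeated, 3 with different counts, and the first row was kept. All value columns were mapped to samples by name. Merged exon lengths came from GENCODE v44lift37 and matched 55663 identifiers.

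CPM is the count over the library's total on genes, without a pseudocount in ratios. Counting intervals (95%) are exact (Poisson for levels, conditional binomial for ratios) and cover counting error only; depth of 42261122 to 54241728 counts sets them. The floor was 3 counts per library.

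Genes were tested over 4 pairs per comparison with edgeR 4.0.16 (R 4.3.3), in a paired quasi-likelihood test with TMM scaling, filterByExpr and Benjamini-Hochberg adjustment at 0.05, with 3 residual degrees of freedom; pairs were the libraries that share all other conditions. Pairs of 1 line share 1 CE derivative. The SE of a log2 fold change was derived as its size divided by the square root of the quasi-likelihood F statistic. DESeq2 1.42.0 was an alternative, as were DESeq2 size factors, upper quartile scaling, log2(FPKM + 1), other filters and leaving out each pair. The scripts were tested on simulated data. The genes named are the 9 genes, per list up to 4 genes of highest mean CPM and the exceptions, noncoding neighbours within 250 kb averaging 0.5 CPM or more, and the 2 genes per member with the most similar pattern. Genes named as called in the CE and Acetalax comparisons were added after their values were seen. Some genes that this rule covers are not reported here. The 9 genes and all lists were chosen with earlier results of these data known.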

Additional observations from a re-analysis of the deposited data

Results flagged for a closer look

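The log2 ratios of Acetalax to control had opposite signs in the lines for 3 of the 9 genes, as they had for 17.1% of 14030 genes, and the difference was not tested. Those of NR2F1 were 1.09 and 0.63 in MDAMB468 parental and CE cells and -0.80 and -1.55 in BT549. Those of NR2F2 were 0.36 and 0.17 in MDAMB468 and -0.60 and -0.85 in BT549. The interval of the MDAMB468 CE ratio of NR2F2, -0.03 to 0.37, includes 0. Those of SOX4 were -0.69 and -0.10 in MDAMB468 and 0.91 and 1.47 in BT549. The MDAMB468 CE ratio of SOX4 was -0.01 under TMM and 0.02 under upper quartile scaling, so its sign there is not settled.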

How the results depend on the processing

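Of 108 log2 ratios of the 9 genes, 97 kept their sign under TMM, 98 under DESeq2 size factors, 95 under upper quartile scaling and 108 as differences of log2(FPKM + 1). Those that changed were at most 0.16 in size, except the line ratio of NR2F1 in CE Acetalax cells (-0.71 to 0.03) and in parental Acetalax cells (-0.24 to 0.14) under upper quartile scaling. Ratios shifted by up to 0.34 under TMM, 0.30 under DESeq2 size factors and 0.74 under upper quartile scaling. As log2(FPKM + 1), members past 2-fold fell to 1 for CE in BT549 with Acetalax, 1 for Acetalax in MDAMB468 parental, 0 in BT549 parental and 3 in BT549 CE cells. Other counts fell too. NR2F2 was at 0.62 and 0.58 for CE in MDAMB468 control and Acetalax cells, and NR2F1 at 0.67 for the lines in parental control cells. FOXA1 went from 0.03 in parental to 0.09 in CE control cells of BT549. With a mean of at least 5 CPM, all genes past 2-fold were 463, 604, 1446 and 1616 for CE (MDAMB468 control and Acetalax, BT549 control and Acetalax) and 867, 498, 560 and 1839 for Acetalax (MDAMB468 parental and CE, BT549 parental and CE). The Acetalax comparison called 984 genes, and 2678 by DESeq2, 3585 with every gene counted, and 0 to 554 without 1 pair; without the MDAMB468 parental pair 3491 of 18967 genes had an unadjusted p under 0.05. The CE comparison called 23 genes, and 925 by DESeq2, 446 with every gene counted, and 0 to 10 without 1 pair. The line comparison called 11188 genes, and 9093 to 9913 without 1 pair. The causes were not tested. The labels give no replicate numbers, so a block by replicate number could not be fitted. The pairs in the tests are libraries that share all conditions but the one compared.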

Other observations

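Keratins of the simple epithelium differed between BT549 parental and CE cells beside the 9 genes. KRT8 was at 1.25 CPM in parental and 34.4 CPM in CE control cells and KRT18 at 6.67 and 47.9 CPM, and neither passed edgeR's quasi-likelihood test over both lines (adjusted p = 0.322 and 0.209). KRT14, a basal keratin, was lower in CE cells (log2 fold change -3.50; adjusted p = 0.0272, edgeR), and its mean was 33.0 CPM ± 32 (SD, n = 4) in MDAMB468. COL6A2, a collagen, was higher (3.62; adjusted p = 0.0272, edgeR) and FN1, fibronectin, was lower (-1.37; adjusted p = 0.0472, edgeR). The calls of KRT14 and FN1 were lost without any 1 of the 4 pairs (adjusted p from 0.12 to 0.185 and from 0.145 to 0.307), and that of COL6A2 without any 1 pair (0.0943 to 0.272) except the MDAMB468 control pair (0.0409).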
